A study of Homo sapiens with 8 samples.

Results

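The 2 tankyrases, TNKS and TNKS2, and 4 genes whose proteins bind them or read their product, RNF146, TERF1, TNKS1BP1 and LNPEP, were followed in mRNA sequencing of colorectal cancer cells. They were chosen by name, for what their proteins are known to do, with earlier results of these data known. They were found as 6 of the 25192 gene symbols by an exact match of the symbol. The cells were HT29 and SW480, human colorectal cancer lines that both carry truncated APC. Each line was transfected for 36 h with control siRNA (siCon) or with siRNA against PRDX2 (siPrdx2), the gene of the peroxide-removing enzyme peroxiredoxin II (PrxII), with 2 libraries in each of the 4 groups. The study's figure legends give a firefly luciferase siRNA as the control. Its methods list more than one PrxII siRNA, without naming the one sequenced. The labels call the experiments duplicates, and nothing says whether these were separate transfections, so p-values measure only the spread between these libraries, which may be technical. The lines were grown in different media, and the methods describe the preparation of the HT29 libraries alone, so cell line, medium and library preparation cannot be told apart.

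Tankyrases are poly(ADP-ribose) polymerases: they build chains of ADP-ribose on partner proteins, which they hold through ankyrin repeats that bind a short peptide. RNF146 is a ubiquitin ligase that recognises such chains and marks the modified protein for the proteasome. Axin, the scaffold of the complex that destroys β-catenin, is the substrate for which this pair of steps is best known in colorectal cancer cells. The comparison of siPrdx2 with siCon asks whether the mRNA of the enzymes and their partners moved when PrxII was depleted.

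The peptide that tankyrases bind has arginine at the first, proline at the fourth and glycine at the sixth position in its classical form. A script translated the coding sequences of the GENCODE canonical transcripts on GRCh37 (the hg19 build of the files) and searched this pattern on the coding strand. It was found 3 times in TNKS1BP1 and 1 time in LNPEP, and these stretches are shown because both proteins are known through their tankyrase binding. Capitals mark the codons of the arginine, the proline and the glycine.
LNPEP, residues 96 to 101: AGGcagagcCCAgatGGG
TNKS1BP1, residues 402 to 407: CGGacgtttCCAtctGGC
TNKS1BP1, residues 1446 to 1451: CGCcccccaCCCtccGGC
TNKS1BP1, residues 1508 to 1513: AGGccgcagCCTgatGGT

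The LNPEP stretch lies at chr5:96315108-96315125 on the plus strand, in exon 2 of 18. The TNKS1BP1 stretches lie on the minus strand, at chr11:57080941-57080958 in exon 5 of 12 and at chr11:57070263-57070280 and chr11:57070077-57070094 in exon 7. TNKS, TNKS2, RNF146 and TERF1 held no such pattern, and 2381 of 19420 canonical proteins of all lengths (12.3%) held at least 1. AXIN1 and AXIN2, the Axin genes, also held none, and NUMA1, another known substrate, held 2. Absence of this strict form is thus not absence of a binding peptide. The pattern describes letters, and says nothing about binding in these cells. On GRCh37, TNKS spans 9413422 to 9639856 and TERF1 73921091 to 73960358, both on the plus strand of chromosome 8. TNKS2 spans 93558183 to 93625232 on the plus strand of chromosome 10, RNF146 127587871 to 127609712 on the plus strand of chromosome 6, TNKS1BP1 57067112 to 57092426 on the minus strand of chromosome 11 and LNPEP 96271098 to 96373217 on the plus strand of chromosome 5.

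The expected counts (reads that RSEM assigned to a gene) summed to 8857442 to 10164137 per library, and 3 counts come to 0.295 to 0.339 CPM (counts relative to the library total, which is TMM-scaled for the gene values below), a limit that covers counting error only. PRDX2 was at 147.9 and 153.7 CPM in the HT29 siCon libraries and at 82.3 and 83.1 CPM with siPrdx2, and at 208.9 and 245.9 CPM against 69.4 and 70.6 CPM in SW480. Of 8 colon epithelium markers, 8 were above 1 TPM (a level scaled by transcript length and library) in all HT29 libraries and 6 in all SW480 libraries, where CDX1 lay between 0.14 and 0.28 TPM and KRT20 between 0.79 and 1.34 TPM. Summed fibroblast markers lay between 2.06 and 10.4 TPM and summed leukocyte markers between 2.94 and 9.22 TPM over both lines, where CD14 lay at 2.94 to 9.22 TPM and COL1A1 at 1.04 to 9.33 TPM, and PTPRC and DCN stood at 0. Summed endothelium markers lay between 0.1 and 0.45 TPM in HT29 and between 1.49 and 1.96 TPM in SW480, with VWF above 1 TPM in all SW480 libraries. The part of such cells in the values below was not tested. One library stood apart: the first SW480 siCon library differed from the second along transcript GC content (Spearman's rho -0.71 across genes), and from the siPrdx2 libraries with -0.65 and -0.67. All pairs of HT29 libraries lay between -0.19 and 0.15. This library enters every SW480 control value below, so the SW480 values of the 6 genes are given with and without it. PRDX2 fell by 1.81 on the log2 scale in SW480 without it, and by 1.70 with it.

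Of the 6 genes, TNKS1BP1 had the highest level per transcript length and TNKS the lowest in all 4 groups. Levels of different genes were compared on the TPM scale alone. In HT29 siCon libraries the order was TNKS1BP1 at 135.3 ± 3.51 TPM (SD, n = 2), TNKS2 at 47.8 ± 0.481, TERF1 at 29.9 ± 2.11, RNF146 at 21.1 ± 0.396, LNPEP at 13.6 ± 1.13 and TNKS at 7.58 ± 0.346, and no neighbours in this order overlapped between libraries. In SW480 siCon libraries TNKS1BP1 was at 61.7 ± 7.5 TPM, TNKS2 at 46.9 ± 6.95, RNF146 at 24.3 ± 0.0354, TERF1 at 23.2 ± 2.73, LNPEP at 19.8 ± 1.34 and TNKS at 12.2 ± 1.05. There, RNF146 and TERF1 overlapped and the other neighbours did not. With siPrdx2, LNPEP at 21.4 ± 0.29 TPM stood above TERF1 at 20.5 ± 0.424 TPM in SW480, while the order in HT29 was that of its control. Among the genes above 1 TPM, TNKS1BP1 ranked at the 90th percentile in HT29 and at 76.7 in SW480, TNKS2 at 69.5 and 69.9, and TNKS at 22.5 and 34.1. The TPM of LNPEP rests on the files' models, whose mean length was 4276 to 4419 bases, against 12134 bases of the GENCODE canonical transcript.

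**Figure D1:**
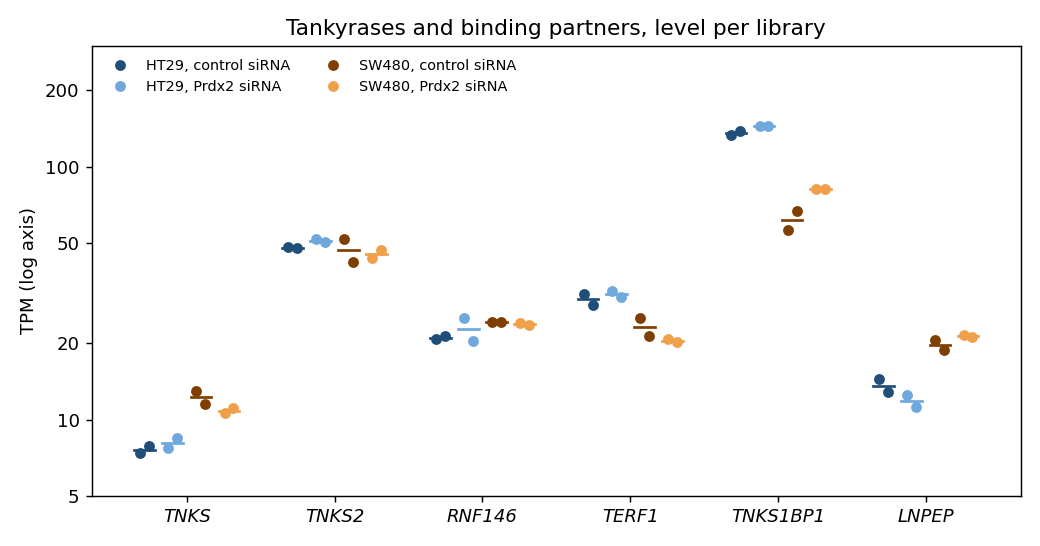
TPM (log axis) of each gene in each library, with siCon in dark and siPrdx2 in light colour, HT29 in blue and SW480 in brown or orange; points are libraries and bars are means of 2 libraries. TNKS1BP1 lies between 132.8 and 145.3 TPM in HT29 and between 56.4 and 81.6 TPM in SW480, and TNKS lies lowest in every group.

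TNKS and TNKS2 encode closely related enzymes with overlapping substrates. TNKS was at 7.34 and 7.83 TPM in the HT29 siCon libraries and at 7.73 and 8.46 TPM with siPrdx2. In SW480 it was at 13 and 11.5 TPM with siCon and at 10.6 and 11.1 TPM with siPrdx2. The HT29 groups overlapped, both SW480 siPrdx2 libraries lay below both siCon libraries, and every SW480 library lay above every HT29 library.

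TNKS2 was at 48.2 and 47.5 TPM in the HT29 siCon libraries and at 51.6 and 50.4 TPM with siPrdx2. The SW480 libraries held it at 51.8 and 42 TPM with siCon and at 43.7 and 46.7 TPM with siPrdx2. On the TPM scale the first SW480 siCon library held the highest TNKS2 level of both lines. The other SW480 libraries lay below all HT29 libraries. In CPM scaled over the 8 libraries, that first library was at 142.5, below all HT29 libraries, which lay between 142.9 and 148.5. The median log2 difference of all genes, HT29 against SW480 with siCon, was -0.15 on log2(TPM + 1). It was -0.04 on the CPM scale used for testing.

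TNKS2 made up most of the tankyrase mRNA in both lines, and more of it in HT29. Its share of the summed TPM was 86.8% and 85.8% in the HT29 siCon libraries and 87% and 85.6% with siPrdx2, against 80% and 78.5% and then 80.5% and 80.9% in SW480. The ratio of TNKS2 to TNKS ran from 5.96 to 6.68 in the HT29 libraries and from 3.65 to 4.22 in the SW480 libraries, without overlap between the lines. Summed, TNKS and TNKS2 reached 55.5 and 55.3 TPM in HT29 with siCon and 59.4 and 58.9 TPM with siPrdx2, and 64.8 and 53.4 TPM and then 54.3 and 57.7 TPM in SW480. The sums were not tested. On the TPM scale the median log2 change of all genes after siPrdx2 was 0.06 in HT29 and 0.08 in SW480 on log2(TPM + 1), against 0.00 on the CPM scale used for testing.

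**Figure D2:**
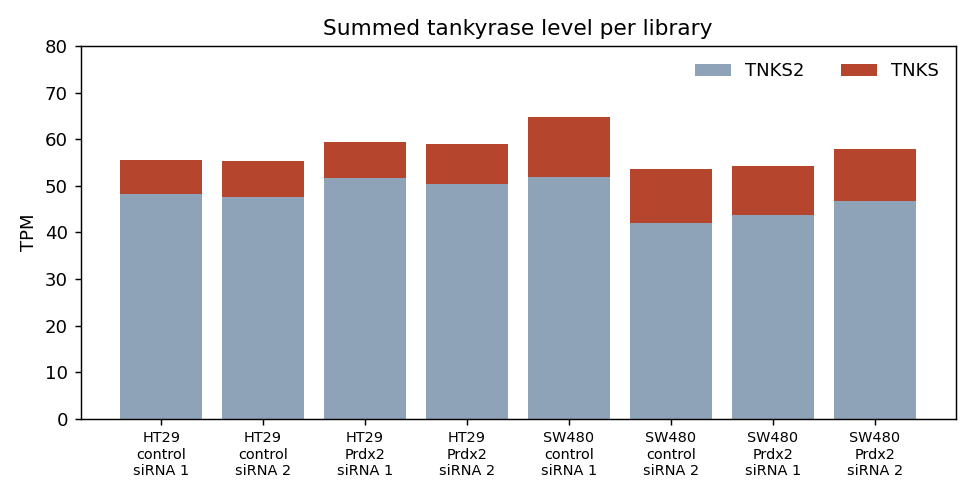
Stacked bars of TNKS2 and TNKS in TPM for each of the 8 libraries. The sum is between 53.4 and 64.8 TPM in every library. TNKS2 forms 85.6% to 87% of it in HT29 and 78.5% to 80.9% in SW480, and TNKS the rest.

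RNF146, the ubiquitin ligase that acts after the tankyrases, was at 20.8 and 21.4 TPM in the HT29 siCon libraries and at 25.1 and 20.4 TPM with siPrdx2. In SW480 it was at 24.2 and 24.3 TPM with siCon and at 24 and 23.7 TPM with siPrdx2. The HT29 siPrdx2 libraries lay on both sides of the control, and the SW480 groups were less than 1 TPM apart. Per summed tankyrase TPM, RNF146 stood at 0.347 to 0.423 in HT29 and at 0.374 to 0.455 in SW480, ranges that overlap.

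TERF1, a protein of the telomere-binding shelterin complex that tankyrase removes from telomeres, was at 31.4 and 28.4 TPM in the HT29 siCon libraries and at 32.1 and 30.6 TPM with siPrdx2. In SW480 it was at 25.1 and 21.3 TPM with siCon and at 20.8 and 20.2 TPM with siPrdx2. Every HT29 library lay above every SW480 library.

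TNKS1BP1, a large protein identified by its binding to tankyrase, was at 132.8 and 137.8 TPM in the HT29 siCon libraries and at 145.3 and 144.4 TPM with siPrdx2. SW480 libraries had 56.4 and 67 TPM with siCon and 81.6 and 81.2 TPM with siPrdx2. The siPrdx2 libraries lay above the siCon libraries in each line, and the first SW480 siCon library was the lowest of all. Per summed tankyrase TPM, TNKS1BP1 stood at 2.39 and 2.49 with siCon and at 2.45 and 2.45 with siPrdx2 in HT29, and at 0.871 and 1.25 and then 1.5 and 1.41 in SW480.

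LNPEP, the insulin-regulated aminopeptidase that travels in the storage vesicles of the glucose transporter GLUT4, was at 14.4 and 12.8 TPM in the HT29 siCon libraries and at 12.5 and 11.2 TPM with siPrdx2. Its SW480 levels were 20.7 and 18.8 TPM with siCon and 21.6 and 21.2 TPM with siPrdx2. On the TPM scale the siPrdx2 libraries lay below the control in HT29 and above it in SW480. On the CPM scale used for testing, the SW480 groups overlapped, at 41.1 and 37.4 CPM with siCon and at 40.1 and 39.9 CPM with siPrdx2.

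In HT29 none of the 6 genes passed the test for a change after PrxII depletion, while 17.6% of the 12961 genes tested did. The test was edgeR's quasi-likelihood test on the counts, with Benjamini-Hochberg adjustment over all genes and a threshold of 0.05, and all 6 genes passed the count filter in every comparison. By edgeR 1 of the 6 had an unadjusted p under 0.05. DESeq2 called 0 of them and 871 of all genes. Limma called 0 of them and 1800 or 1795 of all genes, with a pseudocount of 1 or 0.1. No share of all genes at an unadjusted p is given here or below, so such counts are a description. The siPrdx2 and siCon libraries did not overlap in CPM for 3 of the 6, TNKS2 and TNKS1BP1 (higher, as were 28.3% of all genes tested) and LNPEP (lower, as were 28.7%), against 57.0% of all genes in either direction. In these bulk samples, fewer cells of a type and less RNA per cell cannot be told apart.

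Both tankyrases differed little between the HT29 groups. TNKS was at 33.9 ± 1.57 CPM (SD, n = 2) with siCon and at 34.6 ± 2.34 CPM with siPrdx2, a log2 fold change of 0.03 with a 95% interval from -0.14 to 0.19 (adjusted p = 0.868, edgeR). TNKS2 was at 139.4 ± 1.34 and 142.2 ± 1.79 CPM, a log2 fold change of 0.03 with an interval from -0.06 to 0.12 (adjusted p = 0.723, edgeR). The intervals of TNKS2 and TNKS1BP1 were the narrowest of the 6.

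RNF146 had a log2 fold change of 0.04 with an interval from -0.18 to 0.26 (adjusted p = 0.837, edgeR). For TERF1 it was 0.00, from -0.15 to 0.16 (adjusted p = 0.987, edgeR). TNKS1BP1 was at 365.4 ± 9.68 and 374.1 ± 0.219 CPM, a log2 fold change of 0.03 from -0.03 to 0.10 (adjusted p = 0.504, edgeR).

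LNPEP came closest to the threshold in HT29. It was at 28.5 and 26.1 CPM with siCon and at 23.8 and 21.7 CPM with siPrdx2, a log2 fold change of -0.26 (standard error, SE, 0.09, 95% interval -0.46 to -0.06) with an unadjusted p of 0.0132 and an adjusted p of 0.0661 from edgeR. A correction for GC content gave -0.25 with an adjusted p of 0.0466 (edgeR), where 21.7% of all genes passed, and leaving out the second siCon library gave -0.32 with 0.0438 (edgeR), where 14.8% passed. Over all settings tried, the value lay between -0.32 and -0.19 and the adjusted p between 0.0391 and 0.434.

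**Figure D3:**
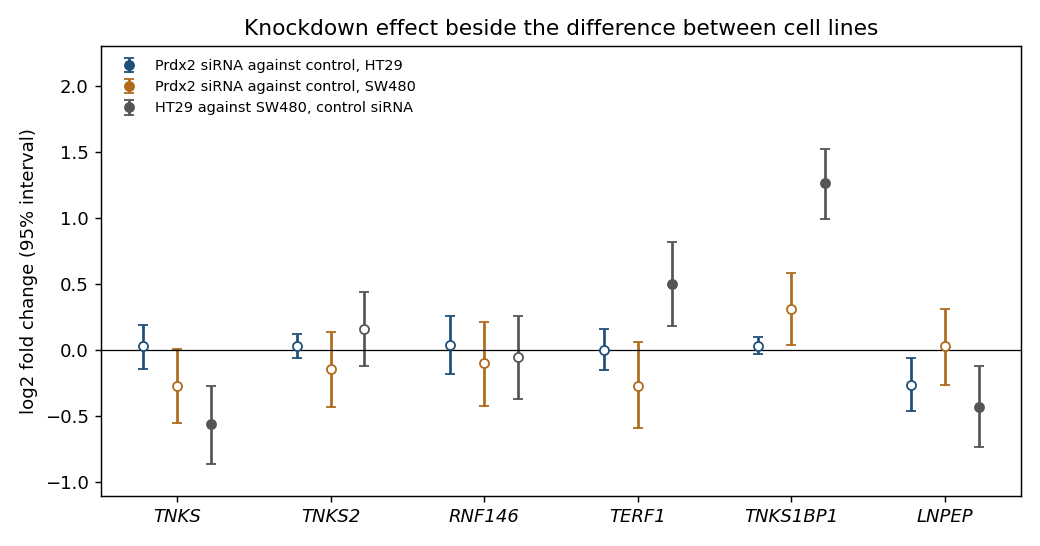
Log2 fold change (edgeR) with its 95% interval for siPrdx2 against siCon in HT29 (blue) and SW480 (orange) and for HT29 against SW480 in the siCon libraries (grey); filled points passed an adjusted p of 0.05 and white centres did not. No knockdown value passed, and TNKS, TERF1, TNKS1BP1 and LNPEP passed between the lines.

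In SW480 none of the 6 genes passed the same test after PrxII depletion, where 3.32% of 14112 genes did. By edgeR 1 of the 6, TNKS1BP1, had an unadjusted p under 0.05. DESeq2 called 0 of the 6 and 686 of all genes. Limma called 0 of the 6 and 214 or 177 of all genes, with a pseudocount of 1 or 0.1. The groups did not overlap in CPM for 4 of the 6, TNKS, RNF146 and TERF1 (lower, as were 29.0% of all genes tested) and TNKS1BP1 (higher, as were 29.6%), against 58.6% in either direction. The log2 fold changes across all genes rose with transcript GC content in this line, with a Spearman's rho of 0.55, against -0.05 in HT29. Transcripts of TNKS1BP1 have 62.3% GC, and those of the 5 other genes from 37.5% for LNPEP to 43.3% for TNKS.

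TNKS was at 56.7 and 50.6 CPM in the SW480 siCon libraries and at 43.5 and 45.5 CPM with siPrdx2, a log2 fold change of -0.27 with a 95% interval from -0.55 to 0.01 (adjusted p = 0.222, edgeR). TNKS2 was at 147.4 and 120.3 CPM and then at 117.2 and 125.3 CPM, a log2 fold change of -0.14 from -0.43 to 0.14 (adjusted p = 0.506, edgeR). Without the first siCon library these values were -0.18 and 0.01, and with the GC correction -0.13 and 0.03, and none of these passed. Without the second siCon library, so against the library that stood apart alone, they were -0.35 and -0.29 with adjusted p of 4.27e-04 and 5.42e-06 (edgeR), where 52.8% of all genes passed.

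RNF146 had a log2 fold change of -0.10 in SW480 with an interval from -0.42 to 0.21 (adjusted p = 0.673, edgeR), and stood at -0.11 without either siCon library and at 0.08 with the GC correction. TERF1 was at 33 and 28.2 CPM with siCon and at 25.8 and 25 CPM with siPrdx2, a log2 fold change of -0.27 from -0.59 to 0.06 (adjusted p = 0.279, edgeR). It stood at -0.15 without the first siCon library, at -0.03 with the GC correction, and at -0.38 without the second siCon library, which passed (adjusted p = 0.00513, edgeR). LNPEP was at 41.1 and 37.4 CPM and then at 40.1 and 39.9 CPM, a log2 fold change of 0.03 from -0.26 to 0.31 (adjusted p = 0.913, edgeR). LNPEP stood at 0.09 without the first siCon library (adjusted p = 0.534, edgeR) and at -0.04 without the second. With the GC correction it stood at 0.28 (adjusted p = 0.0575, edgeR), the highest of the 6 under that correction.

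TNKS1BP1 was at 148.9 and 178.2 CPM in the SW480 siCon libraries and at 202.8 and 201.9 CPM with siPrdx2, a log2 fold change of 0.31 (SE 0.12, 95% interval 0.04 to 0.58) with an unadjusted p of 0.0297 and an adjusted p of 0.162 from edgeR. Without the first siCon library it was 0.18 and passed (adjusted p = 0.0334, edgeR), where 24.6% of all genes did, and without the second it was 0.44 (adjusted p = 6.33e-08, edgeR). With the GC correction it was 0.06 (adjusted p = 0.561, edgeR). The value was above 0 in every setting tried, from 0.06 to 0.44, and its adjusted p ran from 6.33e-08 to 0.866. The part of GC content in these SW480 values was not tested beyond this correction.

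**Figure D4:**
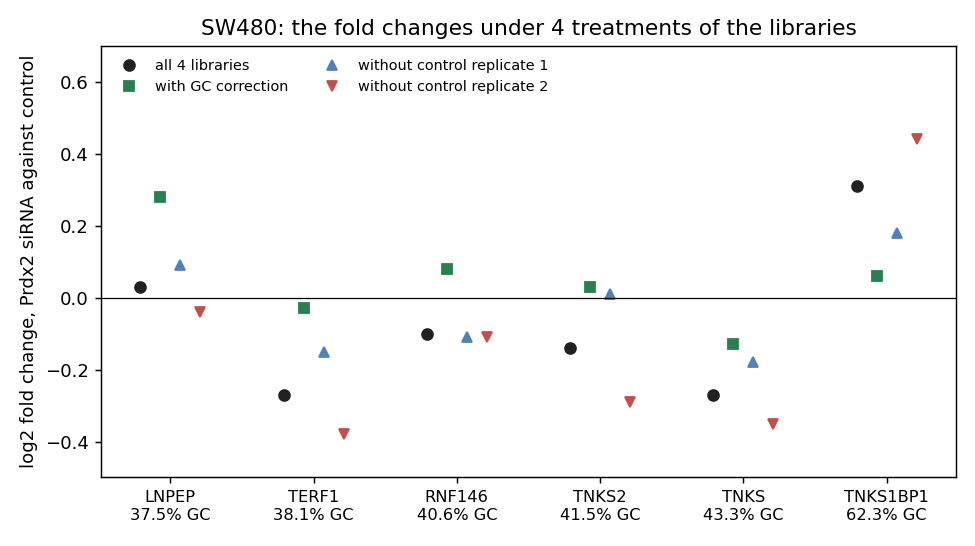
Log2 fold change of siPrdx2 against siCon in SW480 for the 6 genes, ordered by transcript GC content, with all 4 libraries (black), with GC correction (green squares) and without the first (blue) or the second (red) siCon library. TNKS2 runs from -0.29 to 0.03 and TNKS1BP1 from 0.06 to 0.44 over these treatments.

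The effect of PrxII depletion was compared between the lines in 1 fit of all 8 libraries. None of the 6 genes passed, where 1.12% of 14772 genes did. PRDX2 mRNA itself stood at 0.549 of its control in HT29 and at 0.308 in SW480. A difference in response thus cannot be told apart from a difference in the depth of depletion. By edgeR, TNKS1BP1 alone of the 6 had an unadjusted p under 0.05. DESeq2 called 0 of the 6 and 311 of all genes. Limma called 0 of the 6 and 103 or 43 of all genes, with a pseudocount of 1 or 0.1. The difference, HT29 minus SW480 on the log2 scale, was 0.30 for TNKS with a 95% interval from -0.02 to 0.61 (adjusted p = 0.286, edgeR) and 0.17 for TNKS2 from -0.12 to 0.46 (adjusted p = 0.498, edgeR). For RNF146 it was 0.15 from -0.22 to 0.51 and for TERF1 0.27 from -0.07 to 0.61 (adjusted p = 0.662 and 0.358, edgeR).

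For TNKS1BP1 the difference was -0.27 from -0.53 to -0.01 (adjusted p = 0.241, edgeR), and with the GC correction it was 0.00. For LNPEP it was -0.29 from -0.61 to 0.04 (adjusted p = 0.313, edgeR), and with the GC correction it was -0.53 (SE 0.13) and passed with an adjusted p of 0.0182 (edgeR), where 7.06% of all genes passed. Over the settings tried, the LNPEP difference lay between -0.53 and -0.22 with adjusted p from 0.0182 to 0.599. Without the second SW480 siCon library, TNKS (0.37), TNKS2 (0.30), TERF1 (0.37) and TNKS1BP1 (-0.42) passed, as did 35.7% of all genes, and without the first none of the 6 did by edgeR, where 9.32% of all genes passed.

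Between the lines themselves, 4 of the 6 genes passed in the siCon libraries, as did 67.5% of 14346 genes tested. TERF1 and TNKS1BP1 were higher in HT29 (31.8% of all genes were), and TNKS and LNPEP were lower (35.7% of all genes were). CPM in this comparison were scaled over the 4 siCon libraries. TNKS1BP1 was at 366.5 and 379.4 CPM in HT29 and at 141.8 and 170.1 CPM in SW480, 2.39-fold higher in HT29 with a log2 fold change of 1.26 (SE 0.12, adjusted p = 1.95e-05, edgeR). TERF1 was at 43.3 and 39.2 CPM against 31.5 and 26.9 CPM, a log2 fold change of 0.50 (SE 0.14, adjusted p = 0.0119, edgeR).

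TNKS was at 33.5 and 35.7 CPM in HT29 and at 54 and 48.2 CPM in SW480, a log2 fold change of -0.56 (SE 0.13, adjusted p = 0.00426, edgeR). LNPEP was at 29.1 and 26.6 CPM against 39.2 and 35.7 CPM, a log2 fold change of -0.43 (SE 0.13, adjusted p = 0.0199, edgeR). TNKS2, at 143.4 and 141.1 CPM against 140.4 and 114.8 CPM, had a log2 fold change of 0.16 with a 95% interval from -0.12 to 0.44 (adjusted p = 0.282, edgeR), and RNF146 had -0.05 from -0.37 to 0.26 (adjusted p = 0.753, edgeR).

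Without either HT29 siCon library, TNKS1BP1 was the one gene of the 6 that passed: TNKS then stood at -0.48 and -0.58, TERF1 at 0.46 and 0.60 and LNPEP at -0.46 and -0.33, where 50.3% and 50.1% of all genes passed. Without the first SW480 siCon library, TNKS2 passed as well, at 0.23 (adjusted p = 0.00112, edgeR), where 75.0% of all genes did. TNKS1BP1 then stood at 1.05, TERF1 at 0.54, TNKS at -0.56 and LNPEP at -0.44, all past the threshold in edgeR, and RNF146 at -0.13, which did not pass. The siPrdx2 libraries gave the same comparison of lines in other libraries, without the one that stood apart, though this choice was made after seeing the data. There TNKS1BP1 was at 0.98, TERF1 at 0.76, TNKS2 at 0.32, TNKS at -0.27 and LNPEP at -0.72 on the log2 scale, with adjusted p of 1.39e-12, 3.69e-07, 7.67e-06, 0.00376 and 1.36e-06 (edgeR). These 5 of the 6 passed, as did 81.9% of 14438 genes, and RNF146 stood at 0.09 (adjusted p = 0.465, edgeR). The 4 genes that passed in the siCon libraries had the same sign in the siPrdx2 libraries.

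**Figure D5:**
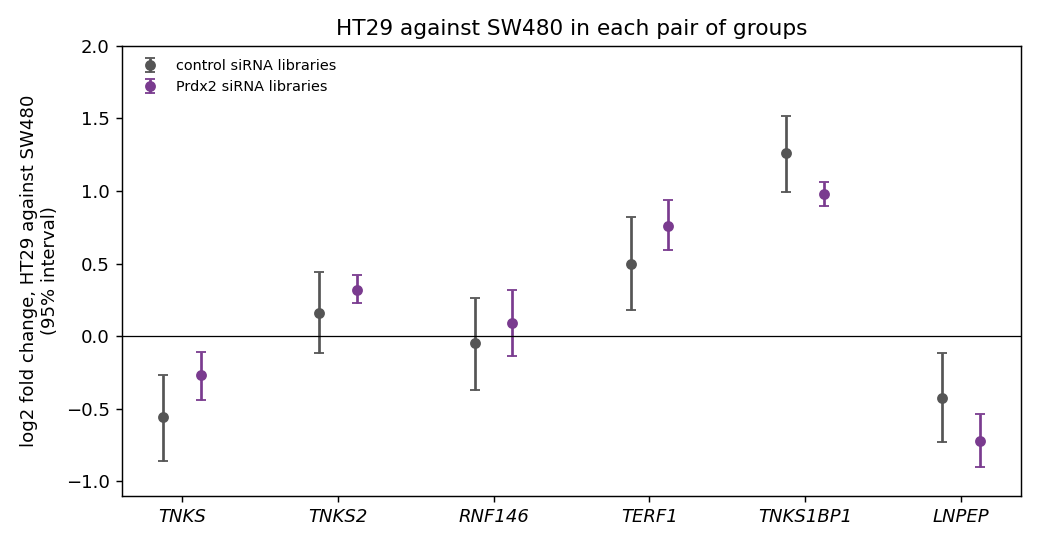
Log2 fold change of HT29 against SW480 (edgeR) with its 95% interval for the 6 genes, in the siCon libraries (grey) and in the siPrdx2 libraries (purple). TNKS1BP1 is highest in both, at 1.26 and 0.98, and RNF146 is nearest to 0, at -0.05 and 0.09.

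Of the Axin scaffolds that tankyrases mark for destruction, AXIN1 rose in both lines and AXIN2 fell in HT29 by edgeR's test. Their changes were not tested against those of the tankyrases. AXIN1 was at 101.5 and 101.3 CPM in HT29 with siCon and at 113.6 and 122.9 CPM with siPrdx2, a log2 fold change of 0.22 (SE 0.05, adjusted p = 0.00608, edgeR). In SW480 it was at 30.8 and 39 CPM and then at 55.7 and 58.2 CPM, a log2 fold change of 0.70 (SE 0.14, adjusted p = 0.038, edgeR). The siPrdx2 libraries lay above the siCon libraries in each line. In SW480 AXIN1 stood at 0.54 without the first siCon library (adjusted p = 4.83e-07, edgeR) and at 0.43 with the GC correction (adjusted p = 0.00443, edgeR). It missed the threshold in HT29 with DESeq2 (adjusted p = 0.061), with all 8 libraries in 1 edgeR fit (0.357) and without the second siPrdx2 library (adjusted p = 0.0683, edgeR). In SW480 it missed with limma (adjusted p = 0.059 and 0.0613 with a pseudocount of 1 and 0.1) and without either siPrdx2 library (adjusted p = 0.246 and 0.384, edgeR). AXIN2, which is also a target gene of β-catenin, fell by 0.60 on the log2 scale in HT29 (adjusted p = 2.45e-07, edgeR), and in SW480 it was at 692.1 and 728.5 CPM with siCon and at 735.5 and 744.6 CPM with siPrdx2 (log2 fold change 0.06, adjusted p = 0.695, edgeR), or 0.02 without the first siCon library.

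Other genes of the pathway were read from lists of known tankyrase substrates, telomere proteins, PARP enzymes, enzymes that remove ADP-ribose and partners of LNPEP. These lists were written with earlier results of these data known. In this order, the lists held 19, 9, 14, 6 and 6 genes tested in HT29 and 20, 9, 14, 5 and 7 in SW480. In HT29, 18 genes of these lists passed by edgeR, where 17.6% of all genes did. Of all 12961 genes there, DESeq2 called 871 and limma 1800 or 1795, with a pseudocount of 1 or 0.1. Of all 14112 genes in SW480 they called 686 and 214 or 177. No share of all genes at an unadjusted p is given, so list counts at that p are a description. Of 19 other tankyrase substrates and binders tested, 4 rose and 2 fell, with a median log2 fold change of 0.00 over the list and 0.00 over all genes. Besides the Axin genes, PEX14, a peroxisome import protein, rose by 0.27 and MCL1, a survival protein, by 0.25. CASC3 rose by 0.16, and AMOTL2 fell by 0.20 (adjusted p = 0.00716, edgeR). DESeq2 called 2 of the list, AXIN2 and MCL1, and limma 5. Over all genes 7.76% rose and 9.82% fell in HT29 by edgeR. In SW480, 1 of 20, AXIN1, passed by edgeR, where 3.32% of all genes did (list median 0.04). Of the 20, 7 had an unadjusted p under 0.05 (edgeR), and DESeq2 called 3 (AMOTL2, ATG9A and AXIN1) and limma 0. The GC correction gave 8 of this list there, where 17.1% of all genes passed.

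TERF1 works with other shelterin proteins, and 3 of 9 shelterin and telomerase genes rose in HT29 while 1 fell by edgeR (list median 0.05), against the 7.76% and 9.82% of all genes. DESeq2 called TERF2IP alone of them (871 of all genes), and limma the same 4 as edgeR (1800 or 1795 of all genes). TERF2IP, the RAP1 protein of telomeres, rose by 0.49 from 49.9 and 51.7 CPM to 73.2 and 69.6 CPM (adjusted p = 1.58e-05, edgeR). TINF2, which joins TERF1 to TERF2, rose by 0.28 and TERF2 by 0.26, while NHP2, a protein of the telomerase particle, fell by 0.19. TERF1 itself stood at 0.00 in this line. In SW480 none of 9 passed by edgeR, where 3.32% of all genes did (list median 0.12). Of the 9, 3 had an unadjusted p under 0.05 (edgeR), and DESeq2 called 1 (686 of all genes) and limma 0 (214 or 177). TERF2IP was at 45 and 45.2 CPM and then at 62.6 and 66 CPM there, a log2 fold change of 0.51 with an adjusted p of 0.0509 (edgeR), and DESeq2 called it.

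Of 14 other PARP enzymes tested in HT29, 3 rose and 4 fell by edgeR, against 7.76% and 9.82% of all genes (list median 0.07). The balance changed with the tool: DESeq2 called 2 higher and 3 lower, without PARP16, and limma 4 higher and 1 lower, without PARP9. Of all genes, DESeq2 called 315 higher and 556 lower, and limma 1252 or 1250 higher and 548 or 545 lower. TIPARP, a mono-ADP-ribosyltransferase, rose by 0.66 from 116.4 and 115.5 CPM to 188.4 and 177.1 CPM (adjusted p = 2.03e-08, edgeR). PARP16 rose by 0.41 and PARP1, the DNA-damage enzyme, by 0.32. PARP9 and PARP10 fell by 0.30 each, PARP14 by 0.29 (adjusted p = 1.36e-05, edgeR) and ZC3HAV1 by 0.27. In SW480 none of 14 passed by edgeR, where 3.32% of all genes did (list median -0.01). Of the 14, 1 had an unadjusted p under 0.05 (edgeR), and DESeq2 called 1 (686 of all genes) and limma 0 (214 or 177).

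None of 6 genes that remove ADP-ribose passed in HT29 by edgeR, where 17.6% of all genes did (list median 0.01). Of the 6, 0 had an unadjusted p under 0.05 (edgeR), and DESeq2 called 0 (871 of all genes) and limma 1 (1800 or 1795). In SW480 none of 5 passed by edgeR, where 3.32% of all genes did (list median 0.06). Of the 5, 1 had an unadjusted p under 0.05 (edgeR), and DESeq2 called 1 (686 of all genes) and limma 0 (214 or 177). Of 6 partners of LNPEP in GLUT4 vesicles, 1 rose in HT29 by edgeR, against 7.76% of all genes (list median 0.07). It was the receptor LRP1, by 0.17, which DESeq2 and limma also called. In SW480 none of 7 passed by edgeR, where 3.32% of all genes did (list median 0.16). Of the 7, 3 had an unadjusted p under 0.05 (edgeR), and DESeq2 and limma called 0. SLC2A4, which encodes GLUT4 itself, did not pass the count filter in HT29 and lay between 0.821 and 2.31 CPM in SW480. With the GC correction 15 genes of these lists passed in SW480, where 17.1% of all genes did, without the first siCon library 18 passed, where 24.6% of all genes did, and without the second 32 passed, where 52.8% did.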

How the data were processed

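Poly-A mRNA libraries were made with a kit that does not mark the strand and were sequenced as paired-end reads. The authors trimmed and checked the reads (FastQC), aligned them to hg19 with MapSplice and estimated abundance for refGene symbols with RSEM. The deposited expected counts, of 8857442 to 10164137 per library, are RSEM's estimated counts, and were whole numbers for the 6 genes. The deposited TPM values are scaled by transcript length and sum to 1000000, and the authors' transcript lengths, which vary with the mix of transcripts, were read as other values. FPKM values were not used. The authors tested genes with DESeq2.

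Expected counts were rounded and tested with edgeR 4.0.16 under R 4.3.3 (glmQLFit, glmQLFTest, TMM on the full library totals, at least 10 counts in at least 2 libraries, Benjamini-Hochberg adjustment, threshold 0.05), within each line, between the siCon groups, and for the difference of the effect over all 8 libraries. Alternatives were RLE normalization, no filter, DESeq2 1.42.0, limma 3.58.1 on log2 TPM with a pseudocount of 1 or 0.1, all libraries in 1 fit, the replicate number as a block, each library left out, and a GC correction (loess of each library on transcript GC content, span 0.5, as an offset). Leaving out a library leaves 1 in its group, which is then assumed to vary like the others. GC content was matched for 20544 of 25192 symbols (81.5%) from GENCODE on GRCh37, with older symbols from RefSeq. Scripts were tested on simulated counts.

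The members and lists were chosen with earlier results of these data known. Named genes are the 6 members, PRDX2, AXIN1 and AXIN2 in every comparison, up to 4 genes per list with the largest change among those passing the threshold at a mean of at least 5 CPM, and the 3 genes most like TNKS and TNKS2. The other genes of the substrate and PARP lists that passed in HT29 by edgeR are named as well. ARPIN, written in the substrate list, was not used here. Same-numbered libraries deviated together with correlations of 0.07 in HT29 and 0.10 in SW480, so the numbers were not read as pairs. No other gene of the files shares exon bases with the 6 genes. GENCODE genes outside the files do for TNKS and LNPEP, and reads from both cannot be told apart. The duplicates of each group differed by more than counting noise. The chi-square per degree of freedom was 1.42 in HT29 siCon, 1.68 in HT29 siPrdx2, 2.08 in SW480 siPrdx2 and 10.6 in SW480 siCon.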

Additional observations from a re-analysis of the deposited data

Results flagged for a closer look

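The effect of PrxII depletion differed between HT29 and SW480 for 2 of the 9 genes followed in every comparison, tested as an interaction in edgeR with Benjamini-Hochberg adjusted p, and neither is a tankyrase or a binding partner of the 6. For AXIN2 the difference, HT29 minus SW480 on the log2 scale, was -0.66 (adjusted p = 0.00888, edgeR), with a fall in HT29 that both siPrdx2 libraries showed. With 1 library left out, it passed in 2 of 8 fits, those without a SW480 siCon library. It missed without the first or second HT29 siCon (edgeR adjusted p = 0.107 and 0.109), HT29 siPrdx2 (0.122 and 0.119) or SW480 siPrdx2 library (0.102 and 0.109), with values between -0.70 and -0.62 over the 8 fits. For PRDX2, the targeted gene, it was 0.84 (adjusted p = 0.0128, edgeR), with a fall of 0.87 in HT29 and of 1.70 in SW480. It too passed in 2 of 8 fits with 1 library left out, those without a SW480 siCon library, and missed without the first or second HT29 siCon (edgeR adjusted p = 0.135 and 0.122), HT29 siPrdx2 (0.122 and 0.141) or SW480 siPrdx2 library (0.138 and 0.159), with values between 0.70 and 0.95.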

How the results depend on the processing

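Under the alternatives, the counts of the 6 genes that passed after PrxII depletion stayed at 0 with RLE normalization, no filter, DESeq2 and limma in both lines. In HT29 the GC correction gave 1 of the 6, as did the replicate block and the block with GC correction, each time LNPEP. In this order, 2675 of 12349, 2889 of 12961 and 2763 of 12349 genes passed there. With 1 library left out, LNPEP stood between -0.32 and -0.19. In SW480 all 8 libraries in 1 fit gave 1 (TNKS1BP1), the block with GC correction 1 (LNPEP at 0.28, adjusted p = 0.024, edgeR), and leaving out a library 0 to 4. For the difference between lines the GC correction, alone or with the block, gave 1 (LNPEP), and leaving out a library 0 to 4. Between the lines, 4 became 3 with limma (TERF1 at 0.35 and 0.37) and 1 to 5 with a library left out. PRDX2 turned from -0.49 in the siCon libraries to 0.33 in the siPrdx2 libraries (added after seeing the data), where it was the target. The cause was not tested for any of these. Of all genes, 2279 passed in HT29 (1006 higher, 1273 lower), 871 with DESeq2, 185 with all 8 libraries in 1 fit and 1563 to 2030 with a library left out, while limma gave 1252 higher and 548 lower. In SW480, 468 passed (172 higher, 296 lower), 214 (126 higher, 88 lower) and 177 (107 higher, 70 lower) with limma, 2293 (1150 higher, 1143 lower) with GC correction, 2415 with all 8 libraries, 1727 (858 higher, 869 lower) with the replicate block, 3023 (1551 higher, 1472 lower) with both, and 87 to 7363 with a library left out. For the difference, 166 passed (91 higher, 75 lower), 267 without a filter, 311 with DESeq2, 103 (44 higher, 59 lower) and 43 with limma, 987 (413 higher, 574 lower) with GC correction, 938 with the block as well, and 6 to 5237 with a library left out. Of the list genes, 18 in HT29 became 9 with DESeq2, 4 with all 8 libraries and 13 to 19 with a library left out, and 1 in SW480 became 6 with DESeq2, 0 with limma, 15 with GC correction, 10 with all 8 libraries, 7 with the block, 15 with both, and 0 to 32 with a library left out. The 95% intervals of all 6 knockdown effects were wider in SW480 than in HT29. The SW480 siCon duplicates differed most of all groups (chi-square per degree of freedom 10.6), and the cause of the wider intervals was not tested.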

Other observations

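The genes whose levels moved most like those of TNKS across the 8 libraries, with each line centred on its own mean, were CCNT1 and SIAH1 (Pearson's r of 0.985 each) and RBM43 (0.983), out of 11805 genes. For TNKS2 they were PPCS (0.989), SKIV2L2 (0.987) and FKBP3 (0.985). TNKS and TNKS2 followed each other with an r of 0.74, less closely than these. All points share the same libraries, including the SW480 siCon library that differs along GC content, so these values are a description.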
